A study of Homo sapiens with 6 samples.

Results

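Olfactory receptor genes encode the G protein-coupled receptors of odorants, and chromosome 11 carries the largest set of them in the human genome. The genes studied here are the protein-coding RefSeq genes of chromosome 11 whose symbol is OR, digits, letters, digits and optional letters. The rule found 171 genes, of 19839 protein-coding genes on chromosomes 1 to 22 and X. Of these, 168 have a position on the primary chromosome 11 of hg38. The other 3, OR9G9, OR8U8 and OR8U9, are listed in the RefSeq table among genes placed on other sequences and were not analysed here. The 168 genes fall into 7 clusters where gaps over 1 Mb between neighbouring genes part them. By symbol, 55 are class I (OR51, OR52 and OR56) and 113 are class II.

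An olfactory neuron expresses 1 receptor gene from 1 allele and keeps the others silent in heterochromatin, and most receptor genes are silent in cells outside the nose. Class I receptors resemble those of fish, and class II receptors arose with land vertebrates. The coding sequence of a receptor usually lies in 1 exon, and the genes stand in tandem arrays with many pseudogenes. In other cell types, receptor arrays are often found in domains that touch the nuclear lamina, the protein meshwork under the inner nuclear membrane that is built of A-type and B-type lamins.

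LaminB1 was mapped by CUT&RUN, which cuts out chromatin bound by an antibody, in HCT116, a human colorectal carcinoma line. Both groups come from the TOP2A mAID line, whose endogenous TOP2A alleles carry an auxin-inducible degron, and all cells were kept in G1 by palbociclib, a CDK4 and CDK6 inhibitor, at 2 uM for 28 h. The control group (2 LaminB1 libraries, labelled wildtype) had the TOP2A mAID genotype with no auxin, per the file names. The double loss group (2 LaminB1 libraries) had the TOP2A mAID/TOP2B -/- genotype and was given 500 uM indole-3-acetic acid (auxin) for 8 h, which removes up to 95% of TOP2A per the series text. Whether the knockout line is a single clone is not given in the sources used here, and the labels do not say whether replicates came from different cultures. The spread of replicates, and p-values based on it, may therefore be technical only. Cell line, auxin, genotype and the control library against which each group was scored cannot be told apart.

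The lists of called LaminB1 regions held 10771 and 13599 regions in control 1 and 2, and 12410 and 12242 in double loss 1 and 2, with 7263458 to 8351031 LaminB1 reads inside regions. Regions of chromosome 11 summed to 33.7 Mb in control 1, 31.4 Mb in control 2, 35.6 Mb in double loss 1 and 36.1 Mb in double loss 2. The measure used below is the covered share, the percentage of a gene body that lies inside regions of a list. Reads outside regions are not in the lists, so a gene at 0% has no read count here and total depth is unknown. Because most receptor genes are short (92 of 168 span at most 2 kb) and regions on chromosome 11 have a median width of 22 to 31 kb, the share was either 0% or 100% in 632 of 672 values. Neighbours share regions and 21 genes overlap another receptor gene, so genes are not independent counts.

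Starts of receptor genes are shown first for 4 class II genes that the results return to. These windows run from 250 bases before to 50 after the RefSeq start (GRCh38.p14), 5′ to 3′ on the strand of the gene. Capitals mark TATAAA or, on the other strand, its complement TTTATA. OR4X2 (chr11:48244854-48245153, plus strand) and OR5P2 (chr11:7796893-7797192, minus strand) were inside regions of all 4 lists, as was OR8D4 (chr11:123901917-123902216, plus strand). The window of OR10A2 (chr11:6862807-6863106, plus strand) was inside regions in both double loss lists and in neither control list.
OR4X2: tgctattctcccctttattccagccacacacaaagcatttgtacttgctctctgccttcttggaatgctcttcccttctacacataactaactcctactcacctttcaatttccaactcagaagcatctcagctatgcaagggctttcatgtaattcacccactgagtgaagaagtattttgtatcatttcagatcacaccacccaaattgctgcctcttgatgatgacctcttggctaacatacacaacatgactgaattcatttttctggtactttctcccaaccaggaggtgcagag
OR5P2: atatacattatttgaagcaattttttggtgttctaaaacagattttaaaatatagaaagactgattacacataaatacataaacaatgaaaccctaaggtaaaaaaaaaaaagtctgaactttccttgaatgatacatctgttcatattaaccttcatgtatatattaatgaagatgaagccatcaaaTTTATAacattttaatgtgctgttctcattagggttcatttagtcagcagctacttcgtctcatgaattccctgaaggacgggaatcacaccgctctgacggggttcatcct
OR8D4: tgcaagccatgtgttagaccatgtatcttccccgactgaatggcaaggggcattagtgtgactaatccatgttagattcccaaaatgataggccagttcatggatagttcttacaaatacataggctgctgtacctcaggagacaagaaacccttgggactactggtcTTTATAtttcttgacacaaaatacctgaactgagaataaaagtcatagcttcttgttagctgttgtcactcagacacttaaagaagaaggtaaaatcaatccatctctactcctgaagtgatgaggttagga
OR10A2: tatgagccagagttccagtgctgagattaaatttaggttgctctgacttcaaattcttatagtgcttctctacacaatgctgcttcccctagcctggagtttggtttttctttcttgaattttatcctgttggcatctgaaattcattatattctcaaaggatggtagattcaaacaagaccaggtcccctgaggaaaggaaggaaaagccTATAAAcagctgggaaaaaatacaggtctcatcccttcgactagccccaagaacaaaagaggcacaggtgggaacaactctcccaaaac
The windows of OR5P2, OR8D4 and OR10A2 each hold 1 TATAAA match, and that of OR4X2 holds none. The window of OR4X2 was covered at 51% in control 1, where a region begins inside it, and at 100% in the other 3 lists.

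Receptor genes of chromosome 11 lay inside LaminB1 regions more often than protein-coding genes at large, but 82 of the 168 were at 0% in all 4 lists. Their mean covered share was 33.6% and 26.8% in control 1 and 2 and 33.6% and 33.5% in double loss 1 and 2. The same mean over all 19839 protein-coding genes was 7.38% and 6.65% in the controls and 7.42% and 7.55% in the double loss lists. Over the other 1129 genes of chromosome 11 it was 8.37% and 7.72% against 9.54% and 9.55%. At least 50% of the body was covered in all 4 lists for 31 receptor genes, or 18.5%, beside 4.3% of all protein-coding genes. Some coverage in at least 1 list was found for 86 receptor genes, or 51.2%, beside 15.4% of all genes. Receptor genes off chromosome 11 numbered 221, of which 33 (14.9%) were at least 50% covered in all 4 lists. These shares are a description, with no test.

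**Figure D1:**
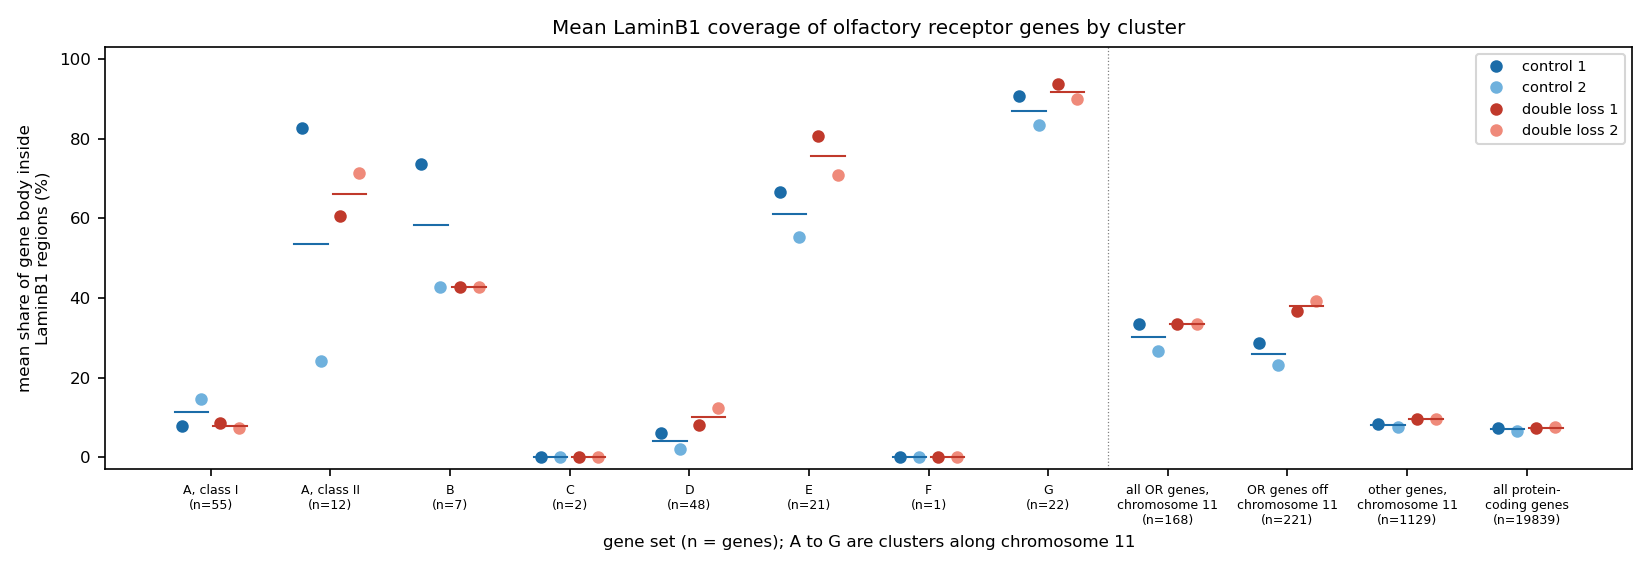
Mean share of gene bodies inside LaminB1 regions (percent, vertical axis) for each receptor cluster, with cluster A split by class, and for 4 comparison sets (horizontal axis). Points are the 4 libraries and lines the means of 2 libraries; cluster G lies at 83.5% to 93.7%, cluster D at 2.08% to 12.5%, and clusters C and F at 0%.

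Mean covered share ranged from 0% in clusters C and F to at least 83.5% in cluster G in every list. Cluster A (chr11:4367263-7941708, OR52B4 to OR10A3) holds 67 genes, all 55 class I genes among them. Cluster B (chr11:48216810-48489722, OR4B1 to OR4A47) holds 7, cluster C (chr11:49952391-49982535) the pair OR4C13 and OR4C12, and cluster D (chr11:54603069-56989843, OR4C46 to OR5AK2) 48. Cluster E (chr11:58023881-59713845, OR9Q1 to OR10V1) holds 21 genes, cluster F is OR2AT4 alone (chr11:75081753-75096890), and cluster G (chr11:123753580-124571374, OR6X1 to OR8A1) holds 22.

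**Figure D2:**
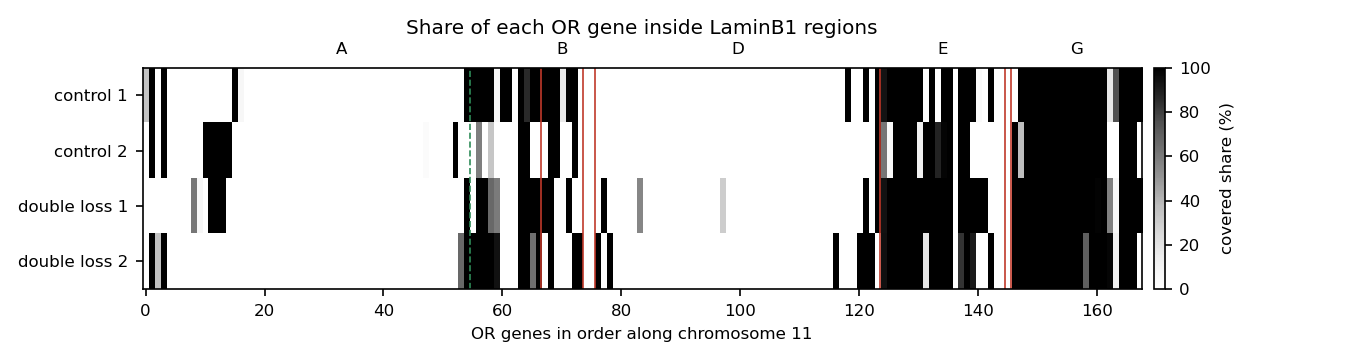
Covered share of each of the 168 receptor genes (columns, in order along chromosome 11) in the 4 lists (rows), from white at 0% to black at 100%. Red lines part the clusters (C and F, of 2 genes and 1, are not lettered) and the dashed line parts class I from class II in cluster A; the class I genes and cluster D are mostly white and cluster G is mostly black.

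Cluster G was nearly filled by LaminB1 regions in both groups. Its mean covered share was 90.6% and 83.5% in the controls and 93.7% and 89.9% in the double loss lists, and the groups overlap. Of its 22 genes, 17 were at least 50% covered in all 4 lists and none was at 0% in all lists. Regions filled 93.6% and 86.0% of the span of the cluster in the controls and 92.7% and 93.5% in the double loss lists. Among stretches called in all 4 lists, the longest with receptor genes lies here, at chr11:123930001-124064000. It is 134 kb long, ranks 13 among 932 such stretches of chromosome 11, and holds OR4D5, OR6T1, OR10S1, OR10G6, OR10G4, OR10G9, OR10G8 and OR10G7. OR10G4 is a receptor of guaiacol, the smoky odorant. OR8D4, next to that stretch, was at 100% in all 4 lists, and in double loss 1 and 2 it shared 1 region with these 8 genes. OR8D1, a receptor of sotolone, was at 100% in 3 lists and at 98.5% in double loss 1. Each region carries the authors' log2 fold, LaminB1 against the control library. Its median over this cluster was 0.69 in control 1, 0.77 in control 2, 0.58 in double loss 1 and 0.63 in double loss 2. Over all regions of chromosome 11 the 4 medians were, in that order, 0.58, 0.64, 0.51 and 0.50, so cluster G was above the chromosome in each list. These folds are read within a list only.

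**Figure D3:**
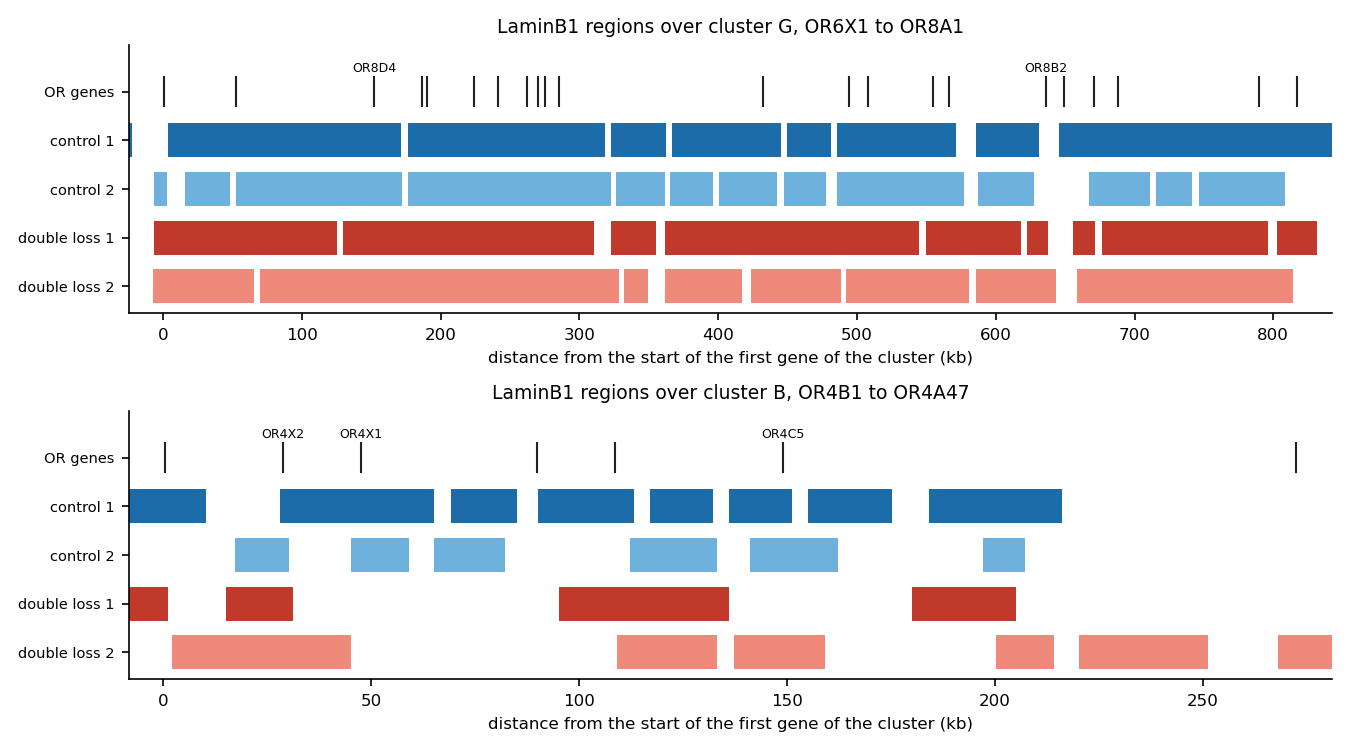
LaminB1 regions (bars, 1 row per list) and receptor genes (ticks) over cluster G and cluster B, by distance in kb from the start of the first gene of each cluster. Bars fill 86.0% to 93.6% of cluster G, while in cluster B OR4X2 lies under bars in all 4 lists and OR4X1 in the control lists only.

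Class I genes were mostly outside LaminB1 regions, and class II genes of the same cluster had a higher mean share in each list. The 55 class I genes had mean shares of 8.01% and 14.6% in the controls and 8.53% and 7.31% after double loss. The 12 class II genes of cluster A stood at 82.7% and 24.3% in the controls and at 60.5% and 71.5% after double loss. The difference, class II over class I, was 74.7, 9.70, 51.99 and 64.2 percentage points in control 1, control 2, double loss 1 and double loss 2, so class II was higher in 4 of 4 lists, by least in control 2. Of the class I genes, 38 were at 0% in all 4 lists and none was at least 50% covered in all 4. Among class II genes of all clusters, 44 of 113 were at 0% in all lists and 31 were at least 50% covered in all 4. Class and place cannot be told apart, since every class I gene lies in a single block of cluster A.

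A run of 30 consecutive class I genes had no coverage in any list. It reaches from OR51G1 to OR52E5 (chr11:4923374-5902730), and the 979 kb between their outer ends were covered at 0% in all 4 lists. OR51B4, a receptor that has been reported in colorectal cancer cells, lies inside this run. Coverage of class I genes was found toward both ends of their block and differed between libraries of 1 group. OR52K2 and OR52M1 were at 100% in both controls and in double loss 2 and at 0% in double loss 1. OR52R1, OR51F2 and OR51S1 were at 100% in control 2 and double loss 1 and at 0% in the other 2 lists. OR51E2, a receptor also expressed in the prostate, was at 61.2% in double loss 1 and at 0% in the other 3 lists, and its neighbour OR51E1 was at 0% in all 4.

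**Figure D4:**
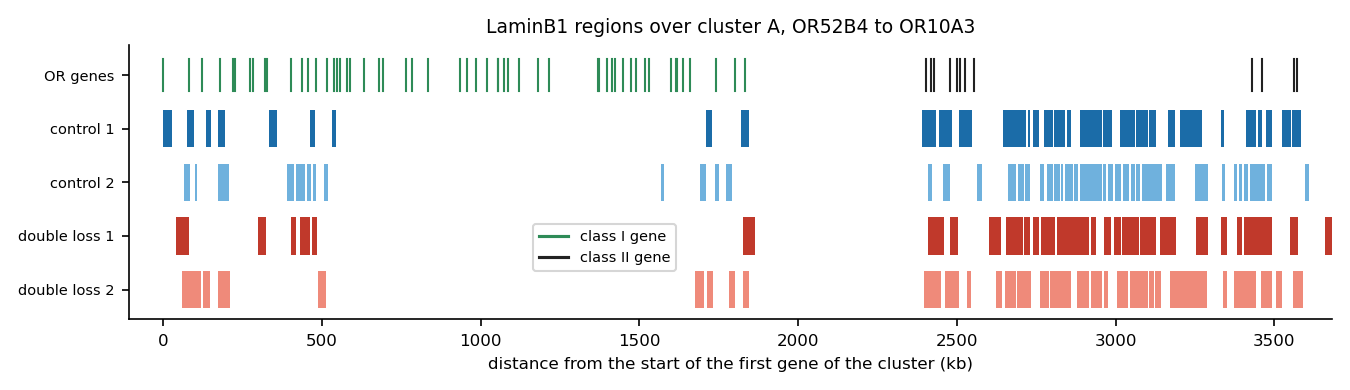
LaminB1 regions (bars, 1 row per list) and receptor genes (ticks, class I and class II in different colours) over cluster A, by distance in kb from the start of OR52B4. The middle of the class I block holds no bar in any list, and most class II genes lie at or near bars.

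The class II genes of cluster A spread further between the control libraries than any whole cluster. In the block from OR2AG2 to OR2D3 (8 genes), mean shares were 75.8% and 11.5% in the controls and 40.8% and 61.7% after double loss. In the block from OR5P2 to OR10A3 (4 genes), they were 96.5% and 50% against 100% and 91.0%. OR5P2 was at 100% in all 4 lists, and OR5P3 was at 86.1% in control 1 and 100% in the other lists. OR6A2, a receptor of aldehydes with the smell of coriander, was at 100% in 3 lists and at 0% in control 2.

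Cluster D, the largest array of class II genes, was mostly outside regions. Its 48 genes had mean shares of 6.25% and 2.08% in the controls and 8.04% and 12.5% in the double loss lists, and 37 of them were at 0% in all 4 lists. None was at least 50% covered in all lists. Both double loss values lay above both control values, by 6.10 points between group means. When only the upper 50% of each list by log2 fold was kept, the difference for cluster D was 0.58 points. It was 3.87 points without double loss 2 and 4.02 without control 2. Most covered genes were covered in 1 list only. OR4C46 was at 100% in double loss 2 and at 0% elsewhere, and OR4A5 at 100% in double loss 1 and 0% elsewhere. The regions over them had log2 folds of 0.33 and 0.19, below the chromosome 11 medians of their lists, 0.50 and 0.51. OR5AK2, the last gene of the cluster, was at 100% in both controls and double loss 1 and at 0% in double loss 2. The 18 genes from OR8I2 to OR5M8 (chr11:56093308-56491370) lay in 398 kb that were covered at 0% in all 4 lists. Regions filled 9.42% and 7.62% of the span of the cluster in the controls and 18.1% and 15.4% in the double loss lists. Clusters C and F, with OR4C13, OR4C12 and OR2AT4, a receptor of a sandalwood odorant that is also found in skin, held no region in any list.

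Cluster E, which follows cluster D along the long arm, was largely inside regions. Its mean shares were 66.5% and 55.4% in the controls and 80.7% and 70.8% in the double loss lists. Both double loss values lay above both control values, as they did for the other genes of chromosome 11. The group means of cluster E were 61.0% ± 7.85 and 75.7% ± 6.98 (control first, SD, n = 2 each), which is 14.7 points apart. That difference was 9.19 points without control 2, 9.80 without double loss 1 and 20.3 without control 1. The first block, OR9Q1 to OR5B21 (13 genes), held 8 genes at least 50% covered in all lists, OR9I1 at 100% in each of them. In the second block, OR5AN1 to OR10V1 (8 genes), 2 genes did so: OR5AN1, a receptor of musk odorants, at 83.6% to 100%, and OR5A2 at 99.7% to 100%. OR5A1, a receptor of beta-ionone, was at 100% in control 1, 0% in control 2, 100% in double loss 1 and 90.7% in double loss 2. The genes OR4D9 and OR10V1 at its far end were at 0% in all 4 lists. Receptors with values here that the naming rule given under processing does not pick, those known for an odorant or tissue among them, were chosen after their values were seen.

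**Figure D5:**
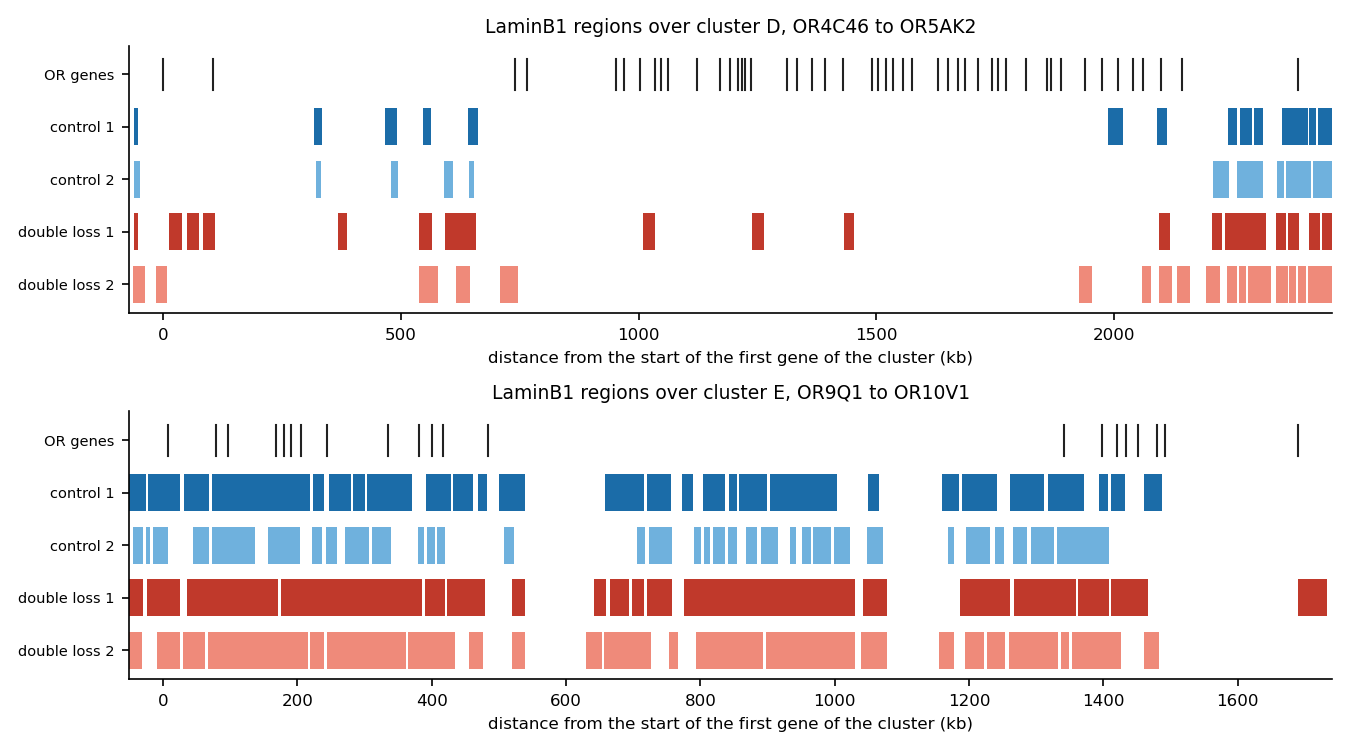
LaminB1 regions (bars, 1 row per list) and receptor genes (ticks) over clusters D and E, by distance in kb from the start of the first gene of each cluster. Bars fill 7.62% to 18.1% of cluster D, with few in the middle, and 42.4% to 66.9% of cluster E.

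The comparison of the groups asks whether receptor genes moved in or out of LaminB1 regions when both type II topoisomerases were lost. Over the 168 genes, mean covered share was 30.2% ± 4.81 for the controls and 33.5% ± 0.0526 after double loss (SD, n = 2 each). The difference of 3.35 points is smaller than the spread of the controls. Without control 2 it was -0.0524 points and without control 1 it was 6.75. With the upper 50% of each list it was 0.174 points. Class I genes stood at 11.3% ± 4.67 against 7.92% ± 0.862, and class II genes at 39.3% ± 9.42 against 46.0% ± 0.341 (control against double loss, SD, n = 2 each), and these differences too are smaller than the SD of the controls. The class I difference was -3.39 points, and it was -0.0902 without control 2, -6.69 without control 1 and -7.03 with equal region numbers. The class II difference was 6.63 points, and it was -0.0341 without control 2, 13.3 without control 1 and 1.89 with the upper 50% of each list. Receptor genes off chromosome 11 stood at 26.0% ± 3.99 against 38.1% ± 1.70, with the groups apart. Whether the sets on and off chromosome 11 differ in this was not tested.

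Of the 168 genes, 86 had coverage in at least 1 list and entered the limma fit over 3052 genes. At an adjusted p under 0.05, limma called 0 of them higher after double loss and 1 lower, beside 1.67% of all genes tested called higher and 1.02% called lower. At an unadjusted p under 0.05, limma had 1 of the 86 higher and 1 lower, beside 293 higher and 184 lower of all 3052 genes tested. Both double loss lists lay above both controls for 4 of the 86 genes, beside 21.5% of all genes tested, and below both for 1, beside 13.9%. For 81 of the 86 the groups overlapped or tied. The 168 receptor genes have a median body of 1103 bases, against 24460 over all protein-coding genes, and their shares are mostly 0% or 100%. Such shares tie easily, so the counts of groups apart are not a like comparison with those over all genes tested.

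OR4X1 (gene ID 390113), a class II gene of cluster B at chr11:48263861-48264778, was the gene called. It was at 100% in control 1, 100% in control 2, 0% in double loss 1 and 0% in double loss 2 (limma adjusted p = 0.0141). The SD was 0 in both groups, so this p rests on the variance that limma takes from other genes. It does not measure a spread of OR4X1 between replicates. In control 1 it shared a region of 37 kb with OR4X2, and in control 2 it lay in a region of its own of 14 kb, with 159 LaminB1 and 96 control library reads. In double loss 2 a region ended 1.86 kb from the gene, and in double loss 1 the nearest region was 15.9 kb away. OR4X2, its neighbour, was at 100% in all 4 lists. With 10 kb added on each side limma called 0 of all 3375 genes tested. There the call on OR4X1 ended, at -61.1 points and an adjusted p = 0.472 by limma. It also ended with equal numbers of regions by log2 fold, at -50 points, and with the upper 50% of regions, where the gene was uncovered in all lists. Other genes of cluster B gave no common direction: OR4C5 was at 100% in both controls and double loss 2 and at 0% in double loss 1, and OR4A47 was at 100% in double loss 2 only.

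The 4 genes whose double loss values lay above both controls did not pass the test in the main fit, which holds all libraries. OR10A2 (chr11:6863057-6874717) was at 6.15% and 0% in the controls and at 59.5% and 93.9% in the double loss lists (limma adjusted p = 0.235). That is a difference of 73.6 points, which was 29.8 points with the upper 50% of each list and 42.9 points with 10 kb added on each side. OR8B2 (chr11:124382394-124397320), toward the far end of cluster G, was at 17.5% and 0% against 57.7% and 97.9% (adjusted p = 0.369). With 10 kb added on each side the difference for OR8B2 was 14.4 points. OR8B3, which overlaps it, was at 75.7% and 0% in the controls and at 5.65% and 10.3% in the double loss lists. OR5B3 (chr11:58402464-58406874) was at 0% and 87.8% against 100% and 100%, and OR9Q1 (chr11:58023881-58181616) at 93.0% and 61.3% against 93.7% and 94.3% (adjusted p = 0.589 each). The difference for OR5B3 was 56.1 points. It was 12.2 points without control 1, 100 points without control 2 and 6.09 points with the upper 50% of each list (limma adjusted p = 0.972 for the last). The difference for OR9Q1 was 16.8 points, and it was 32.6 points without control 1 and 0.951 points without control 2. Fits without control 1 or control 2 leave 1 library in a group, so only their points are given here. Whether these genes pass therefore depends on the libraries kept.

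The regions over receptor genes resembled the other regions of chromosome 11 in depth. Between 31 and 33 regions per list held a receptor gene. They carried 11.6 and 12.5 LaminB1 reads per kb in the controls and 12.8 and 12.7 in the double loss lists, against 11.9, 12.7, 12.9 and 12.98 over all chromosome 11 regions. Control library reads per kb in them were 6.18 and 6.17 in the controls and 8.30 and 8.23 after double loss. Over all chromosome 11 regions they were 6.34 and 6.36 in the controls and 8.39 and 8.39 after double loss. The group difference in control library reads stood beside every comparison above, and its part in the results was not tested. Median log2 fold over these regions was 0.56, 0.64, 0.55 and 0.50 in control 1, control 2, double loss 1 and double loss 2. The lowest fold among them was, in that order, 0.34, 0.32, 0.16 and 0.14. A covered gene thus need not have the same strength of signal in each list, and the effect of this on the comparisons was not tested.

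Receptor pseudogenes of chromosome 11 number 195, and part of them lie outside the clusters. In cluster G, 15 of 20 were at least 50% covered in all 4 lists, and in cluster E 8 of 15. In cluster D none of 59 was, and 42 were at 0% in all lists. In cluster A 1 of 47 was, and 29 were at 0% in all lists. In cluster B the 6 pseudogenes had mean shares of 39.3%, 27.6%, 33.3% and 77.6% in control 1, control 2, double loss 1 and double loss 2, where its 7 receptor genes had 73.8%, 42.9%, 42.9% and 42.9%. Other protein-coding genes inside the cluster spans numbered 61, with mean shares of 21.6% and 16.6% in the controls and 23.6% and 21.2% in the double loss lists. One of them passed the limma test: VWA5A, in cluster G, was at 87.6% and 89.0% in the controls and at 100% in both double loss lists (adjusted p = 0.0141).

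Base composition at the gene starts was available for 135 of the 168 genes in the RefSeq promoter table (GRCh38.p14). The 300-base windows had a median A and T content of 63.0%, against 37.3% over 15813 protein-coding genes. Windows of the 25 genes with a sequence that were at least 50% covered in all 4 lists had a median of 59.3%, and those of the 66 at 0% in all lists 63.8%. The mostly uncovered cluster D stood at 66.8% and the nearly filled cluster G at 60.3%. The RefSeq start was the first base of an ATG in 64 of the 135 windows, so part of them begin at coding sequence rather than at a transcription start. TATAAA, on either strand, was found in 48 windows (35.6%), beside 11.95% of all 27305 windows of the table. TAATTA, the palindromic core bound by homeodomain factors, was found in 33 (24.4%), beside 4.98%. The palindromic core of EBF sites, TCCC and GGGA parted by any 2 bases, was found in 2 (1.48%), beside 1.20%. Over the 15813 protein-coding genes the shares were 9.64% for TATAAA, 3.35% for TAATTA and 1.40% for the EBF core. The 179 windows of receptor genes off chromosome 11 had a median A and T content of 61.7%. TATAAA was in 35.2% of these, TAATTA in 21.8% and the EBF core in 0.559%. High A and T content, TATAAA and TAATTA were thus not particular to chromosome 11. TATAAA and TAATTA can overlap by end letters, and a match describes letters only.

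Genes of olfactory signalling outside the receptor family were outside regions about as often as protein-coding genes at large. Of 19 listed genes, 16 (84.2%) were at 0% in all 4 lists, beside 84.6% of all protein-coding genes. Among them were GNAL, the G protein subunit, ADCY3, the adenylyl cyclase, and CNGA4, a channel subunit gene that lies in cluster A. EBF1, a transcription factor of olfactory and other lineages, was at 96.1% and 97.5% in the controls and at 94.3% and 93.8% in the double loss lists (limma adjusted p = 0.320). PDE1C, a phosphodiesterase gene, was at 89.3% and 85.4% against 75.7% and 74.1% (adjusted p = 0.268), and STOML3 was at 0.305%, 64.5%, 36.4% and 72.6%. None of the 3 passed. At an unadjusted p under 0.05, limma had 0 of the 3 higher and 2 lower, EBF1 and PDE1C, beside the 293 and 184 of 3052 genes given above.

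Other gene families of chromosome 11 differed in coverage as well. Coverage in at least 1 list was found for 4 of 23 TRIM genes, 10 of 16 MS4A genes, 8 of 10 MMP genes, 2 of 8 MRGPR genes, which encode sensory receptors in tandem, and 0 of 11 KRTAP5 genes. The MS4A genes, membrane proteins of immune cells that follow cluster E, had mean shares of 11.1% and 3.76% in the controls and 33.4% and 47.6% after double loss. In limma, 1 of the 10 tested was called higher, beside 1.67% of all genes tested. It was MS4A6A, at 0% in both controls and 100% in both double loss lists (adjusted p = 0.0141), with no spread within a group, as for OR4X1. At an unadjusted p under 0.05, limma had 4 of the 10 higher and 0 lower, beside 293 and 184 of 3052 genes. Both double loss lists lay above both controls for 5 of the 10, beside 21.5%. Of the 4 TRIM, 8 MMP and 2 MRGPR genes that could be tested, limma called 0, and at an unadjusted p under 0.05 had 0 higher and 1 lower, an MMP gene. No KRTAP5 gene entered the test.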

How the data were processed

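LaminB1 CUT&RUN read pairs of 75 bp were mapped to hg38 using Bowtie2 2.3.4.3, and Picard was also used, both per the submitters' processing notes. The sources used here name neither the region caller nor its settings, nor how reads mapping to several places were treated. Each of the 4 lists was called on 1 library and deposited on a 1 kb grid. Per the file headers, the authors give each region counts of LaminB1 and of control library reads, a p-value, an adjusted p-value, a score and a log2 fold. Lists were matched to samples by genotype and replicate number in their names, and the 2 IgG libraries entered no fit.

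Covered shares were computed with Python 3.11.15, numpy 2.4.6 and pandas 2.3.3 from RefSeq gene bodies (GRCh38.p14), without rows placed on other sequences. Genes covered in at least 1 list entered limma 3.58.1 (R 4.3.3) as arcsine-transformed square roots of their shares, with a variance trend and Benjamini-Hochberg adjustment over all 3052 genes. The fit and the coverage arithmetic were tested on simulated data. With 2 libraries a group, means over genes are described without a test. For genes with several promoter windows the first listed was used.

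Named genes were those called, the 3 per cluster with the largest difference among genes whose groups do not overlap, the first gene per cluster at 100% in all lists, and, in clusters with none, the first and last gene. Genes, lists and tests were chosen with earlier results of these data known. Alternatives left out each library, blocked on replicate number, or changed regions, gene intervals, scale, scaling and filter.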

Additional observations from a re-analysis of the deposited data

How the results depend on the processing

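The count of receptor genes called by limma, 0 higher and 1 lower, changed with several settings. Keeping only the upper 50% of each list by log2 fold gave 1 higher (OR5P2) and 0 lower, beside 42 and 26 of all 2006 genes tested. With 10 kb added on each side the count was 0 and 0, for receptor genes and for all 3375 genes tested. With equal region numbers it was again 0 and 1, but the gene was OR52K2, not OR4X1. Leaving out 1 library gave 4 to 11 higher and 4 to 7 lower. Omitting control 1 gave 11 and 4, control 2 gave 4 and 7, double loss 1 gave 8 and 4, and double loss 2 gave 6 and 5, with OR4X1 among them each time. Calls over all genes also moved in these fits, from 51 higher and 31 lower of 3052 tested to 157 and 223 of 2912 without control 1, 106 and 228 of 2933 without control 2, 374 and 125 of 2889 without double loss 1, and 346 and 121 of 2865 without double loss 2. In those fits a group holds 1 library, which is assumed to vary like the others. With the replicate block limma called 0 higher and 0 lower, for receptor genes and for all 3052 genes tested. At an unadjusted p under 0.05 it had 0 receptor genes higher and 1 lower. OR4X1 kept its difference of -100 points, with an adjusted p = 0.270 by limma under the block. The calls on VWA5A and MS4A6A thus also ended under the block and with 10 kb added on each side. The labels do not say whether replicate numbers pair the samples. Half-differences of same-numbered libraries correlated at -0.0169 over 3052 genes, which with only 2 numbers cannot decide it. The fit with no filter on coverage could not be fitted, because most genes have a variance of exactly 0.

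The mean difference over the 168 receptor genes ranged from -0.0524 to 6.75 points over the fits that left out 1 library, and that of class II from -0.0341 to 13.3; both turned negative without control 2. The upper 50% of regions gave 0.174 points over all 168 and equal region numbers 1.55. Cluster A turned from -0.54 points to 1.29 with 10 kb flanks and lay between -3.06 and 1.98 when 1 library was left out, the latter without control 1. It was -4.63 with the upper 50% of regions and -5.02 with equal region numbers. Cluster B turned from -15.5 to 14.3 with the upper 50% of regions, and was 0 without control 1 and -30.9 without control 2. The cluster G difference of 4.76 points lay between 1.21 (without control 2) and 8.31 (without control 1), and was 0.0886 with the upper 50% of regions. In genes with bodies of at most 2 kb, an alternative chosen after seeing the data, the mean difference was 0.59 points. The number of genes at least 50% covered in all 4 lists, 31, was 21 to 34 under other choices of regions or flanks. It was 32 to 41 when only 3 lists had to hold, 35 when any overlap in all 4 lists counted, and 23 when the whole body had to be covered. Lists hold no reads outside regions, so depth at uncovered genes is unknown.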
